A study of Mus musculus with 51 samples.

Results

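The bile salt and organic anion transporters described here are 10 genes, picked by symbol out of the 33773 genes of the authors' expression matrix and read in every RNA library. They comprise 5 uptake carriers, Slc10a1, Slco1a1, Slco1a4, Slco1b2 and Slco2b1, and 5 exporters, Abcb11, Abcb4, Abcc2, Abcc3 and Abcc4. All 10 were present in the matrix.

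Hepatocytes clear bile salts, bilirubin, hormones and many drugs from portal blood through carriers on the sinusoidal (blood-facing) membrane. Slc10a1 (NTCP) takes up bile salts together with sodium, and the Slco carriers (OATPs) take up organic anions without it. On the canalicular (bile-facing) membrane, Abcb11 (BSEP) pumps bile salts, Abcb4 moves phosphatidylcholine and Abcc2 (MRP2) pumps conjugated bilirubin and other conjugates into bile. Abcc3 and Abcc4 (MRP3 and MRP4) return conjugates and bile salts to the blood and are known as a relief route when bile flow is blocked. FoxA1, FoxA2 and FoxA3 are forkhead proteins that bind liver enhancers, and HNF4a is a nuclear receptor that many liver genes depend on.

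The series asks what adult mouse hepatocytes express without FoxA factors. The 4 FoxA triple null libraries come from hepatocytes of FoxA1L/L, FoxA2L/L, FoxA3-/- mice that received AAV8 with Cre recombinase under the hepatocyte-specific Tbg promoter at 8 weeks of age. Their controls had those alleles and a virus expressing GFP, and are taken here to be the 4 FoxA3 null libraries, so both groups lack FoxA3. FoxA1/A2 lox (3 libraries) and FoxA1/A2 Cre alfp (4 libraries) are hepatocytes in which Foxa3 RNA was present; the labels do not say in which cells or when the alfp Cre acted. A separate set from liver holds 2 HNF4a control libraries and 4 labelled HNF4a null, depleted in adult livers. The labels do not say whether libraries of a group came from separate animals, so p-values measure the spread between libraries, which may be technical.

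Levels are the authors' RPKM, which is reads scaled by gene length and depth, so that levels can be compared between genes. Differences are on the log2(RPKM + 1) scale and come from limma fits over all genes, 11500 in hepatocytes and 12434 in liver. Calls required a Benjamini-Hochberg adjusted p under 0.05 together with a log2 difference of 1 or more in either direction. Of the transporters, 9 of 10 passed the filter on low values in hepatocytes, all except Abcc4, and 10 of 10 passed in liver. Absolute depth is unknown; relative to the shallowest library it was 2.01 to 4.07 in hepatocytes and 1 to 1.1 in liver.

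To check the labels, the targeted genes were read in each library. Foxa3 was between 0 and 0.0114 RPKM in the FoxA3 null and triple null libraries and between 19.0 and 34.5 RPKM in lox and Cre alfp. Foxa2 was 11.1 to 20.6 RPKM in FoxA3 null and 0.243 to 0.470 RPKM in the triple null, and Foxa1 was 6.14 to 10.1 and 3.04 to 3.63 RPKM. With FoxA3 present, Foxa2 was 6.84 to 19.2 RPKM in lox and 0.991 to 1.26 RPKM in Cre alfp, and Foxa1 was 4.71 to 8.21 and 1.14 to 1.34 RPKM. The remaining RNA was therefore unequal, with more Foxa1 and less Foxa2 in the triple null than in Cre alfp. Hnf4a went against its label, since the liver controls had 126 and 118 RPKM and the libraries labelled HNF4a null had 519, 545, 487 and 545 RPKM. The matrix has 1 value per gene, so transcripts that lack deleted exons cannot be told from complete ones, and every liver direction below is that of the libraries labelled HNF4a null. Genes of 7 hepatocyte markers summed to 43461 to 47952 RPKM in FoxA3 null and 18129 to 23241 RPKM in the triple null, where 5 of the 7 were called lower and 1 higher. In these bulk samples, fewer cells of a type and less RNA per cell cannot be told apart.

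Of the uptake carriers, 3 lie close together on mouse chromosome 6 and differed in direction, so the windows around their start sites are shown first. The gene order in the RefSeq annotation of GRCm38.p6 runs Slco1c1, Slco1b2, Gm5724, Slco1a4, Slco1a1, Gm6614, Slco1a6 and Slco1a5. The windows, from RefSeq, run 5′ to 3′ from 250 bases before to 50 bases after each start: chr6:141629268-141629567 on the plus strand for Slco1b2, and chr6:141856171-141856470 and chr6:141946913-141947212 on the minus strand for Slco1a4 and Slco1a1. Capitals mark matches to the motifs searched.
Slco1b2: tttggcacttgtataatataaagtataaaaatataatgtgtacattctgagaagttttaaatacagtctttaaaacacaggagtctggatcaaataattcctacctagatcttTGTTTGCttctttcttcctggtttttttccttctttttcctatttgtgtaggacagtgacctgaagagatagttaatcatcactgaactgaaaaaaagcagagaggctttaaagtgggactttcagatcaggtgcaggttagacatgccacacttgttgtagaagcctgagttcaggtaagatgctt
Slco1a4: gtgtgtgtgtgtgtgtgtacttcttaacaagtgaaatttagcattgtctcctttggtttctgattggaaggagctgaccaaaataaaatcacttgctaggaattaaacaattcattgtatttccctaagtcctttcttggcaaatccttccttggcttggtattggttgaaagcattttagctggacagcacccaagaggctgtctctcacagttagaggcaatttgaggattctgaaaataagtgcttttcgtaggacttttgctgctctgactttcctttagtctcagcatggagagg
Slco1a1: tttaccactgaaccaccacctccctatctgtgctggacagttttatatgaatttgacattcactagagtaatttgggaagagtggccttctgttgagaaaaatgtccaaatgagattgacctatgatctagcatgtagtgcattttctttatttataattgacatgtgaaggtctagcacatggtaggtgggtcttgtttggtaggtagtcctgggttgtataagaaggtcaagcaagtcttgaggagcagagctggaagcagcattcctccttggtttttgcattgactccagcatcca

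The motifs, searched on both strands, included 3 spellings of the forkhead site, of which the first was TGTTTAC, the second was TGTTTGC and the third was TATTTAC. The other motifs were an HNF4a site with the letters CAAAGTCCA, the FXR inverted repeat and the antioxidant element, written TGACNNNGC. In the Slco1b2 window, TGTTTGC begins at position -137, counted from the start site. The same letters occurred in 5.07% of all 32851 RefSeq windows. The Slco1a4 and Slco1a1 windows held no match, which says only that these letters are not in these windows. Windows existed for 9 of 10 transporters, with none for Abcc3. Elsewhere, TGACNNNGC, found in 12.4% of all windows, occurred in the Abcc2 window and in both Abcc4 windows, and no other motif matched in a transporter window. The FXR letters occurred in only 0.0396% of all windows and the HNF4a letters in 0.475%, so few matches could be found. Only these exact letters were searched, so a window without a match, that of Abcb11 included, is not shown to lack a site.

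Deletion of Foxa1 and Foxa2 in FoxA3-deficient hepatocytes changed the make-up of the uptake carriers. Slco1a1 nearly disappeared, Slco1b2 rose about 2.05-fold in mean RPKM, and the sinusoidal exporter Abcc3 fell. Slco2b1 and the bile salt pump Abcb11 stayed at similar mean RPKM. For Abcb11, the authors' deposited table of this comparison gives a fall instead (-0.81). Of the 9 transporters tested in triple null against FoxA3 null, 1 was called higher and 2 lower. Over all 11500 genes, 4.17% were called higher and 3.95% lower. The median log2 difference was -0.85 over the 9 transporters and 0.0453 over all genes.

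Slco1a1, a carrier of steroid conjugates and bile salts on the sinusoidal membrane, was 216, 120.3, 191 and 120.3 RPKM in FoxA3 null. In the triple null it was 1.14, 1.10, 1.66 and 1.75 RPKM. The groups did not overlap, and the mean fell from 162 ± 49.1 to 1.41 ± 0.338 RPKM (SD, n = 4 each), which is 0.871% of the FoxA3 null mean. The log2 difference was -6.04 (SE 0.65, adjusted p 9.94e-06 by limma). This SE uses a spread shared by all hepatocyte groups, including Cre alfp, whose replicate 4 lay far below its group.

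Slco1b2, the mouse liver OATP that takes up bilirubin conjugates and drugs, moved the other way. It was 577, 347, 389 and 350.2 RPKM in FoxA3 null and 757, 688, 1014 and 955 RPKM in the triple null. Every triple null library lay above every FoxA3 null library. The log2 difference was 1.05 (SE 0.17, adjusted p 0.000421 by limma). It was between 0.96 and 0.99, under the minimum difference, without FoxA3 null replicate 2 or 4 or triple null replicate 3 or 4, with the adjusted p still between 0.00169 and 0.00216.

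Slc10a1, the sodium-dependent bile salt carrier, was 322, 315, 289 and 331 RPKM in FoxA3 null and 178, 128, 207 and 192 RPKM in the triple null. The groups did not overlap, and the triple null mean was 56.1% of the FoxA3 null mean. Its log2 difference of -0.85 (SE 0.22, adjusted p 0.00978 by limma) was under the minimum difference. Slco1a4, a carrier of bile salts and cardiac glycosides, was 10.1, 3.00, 12.2 and 11.7 RPKM in FoxA3 null and 2.58, 4.73, 2.83 and 5.98 RPKM in the triple null. The low FoxA3 null replicate 2 made the groups overlap, and the log2 difference of -0.94 (SE 0.40, adjusted p 0.0936 by limma) was not called. Without that library it was -1.35 (adjusted p 0.0121 by limma) and was called.

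Slco2b1, a carrier of sulfated steroids, was 50.7, 33.7, 30.3 and 32.2 RPKM in FoxA3 null and 33.4, 32.8, 48.0 and 34.2 RPKM in the triple null. The groups overlapped, each with 1 library above the rest, and the log2 difference was 0.025 (SE 0.17, adjusted p 0.933 by limma). Its sign turned under quantile normalization and median scaling. The authors' deposited table of triple null against FoxA3 null gives 0.25 for Slco2b1 (adjusted p 0.044). For the other uptake carriers it gives -6.75 for Slco1a1 (2.96e-184), 0.97 for Slco1b2 (7.67e-06), -0.89 for Slc10a1 (1.98e-07) and -1.15 for Slco1a4 (0.0949).

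As shares of the summed RPKM of the 5 uptake carriers, Slco1b2 made up 43.9% ± 3.5 in FoxA3 null, against 79.6% ± 1.2 for the triple null (SD, n = 4 each). Slco1a1 made up 17.1% ± 3.19 and 0.131% ± 0.0122, and Slc10a1 34.2% ± 5.63 and 16.4% ± 1.38. The sum itself was 819 to 1176 RPKM in FoxA3 null and 855 to 1274 RPKM in the triple null, so its ranges overlapped.

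**Figure D1:**
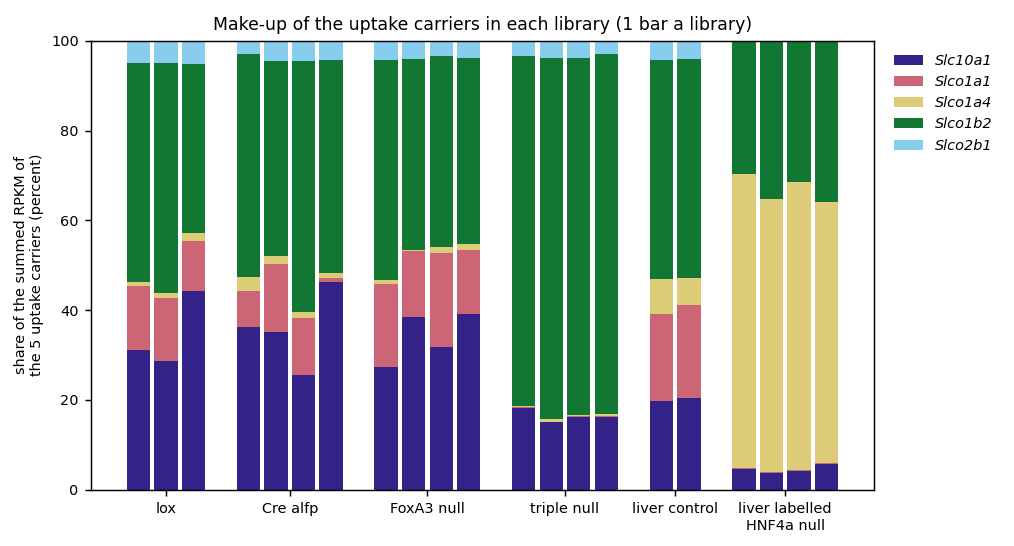
Share of each uptake carrier (percent, vertical axis) in the summed RPKM of the 5 uptake carriers, 1 stacked bar per library, grouped by label. Slco1b2 takes 77.9% to 80.5% in the triple null libraries and 41.4% to 49.1% in FoxA3 null, and Slco1a4 takes 58.2% to 65.5% in the liver libraries labelled HNF4a null.

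On the canalicular side, 0 of the 3 exporters were called in triple null against FoxA3 null by limma; Abcc2 alone had an unadjusted p under 0.05. Abcb11, the bile salt export pump, was 149.8, 182, 277 and 192 RPKM in FoxA3 null and 217, 191, 161 and 214 RPKM in the triple null. The groups overlapped, with a log2 difference of -0.0069 (SE 0.25, adjusted p 0.99 by limma). The authors' deposited table of the same comparison gives -0.81 with an adjusted p of 4.82e-06 for Abcb11. A gap of this size between that table and the fit here was exceeded by 4.25% of 9933 shared genes, and its cause was not tested.

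Abcb4, the phosphatidylcholine translocator, was 106, 87.7, 70.3 and 102 RPKM in FoxA3 null and 100.4, 110.4, 118 and 107 RPKM in the triple null, overlapping ranges with a log2 difference of 0.27 (SE 0.17, adjusted p 0.259 by limma). Abcc2 was 160.1, 82.8, 45.7 and 61.1 RPKM in FoxA3 null and 39.8, 34.0, 44.2 and 36.8 RPKM in the triple null. All triple null libraries lay below all FoxA3 null libraries, which were widely spread. The log2 difference of -1.0 (SE 0.39, adjusted p 0.065 by limma) was not called. It was called under quantile normalization (adjusted p 0.048), with only the 2 groups in the fit (0.0479) and without FoxA3 null replicate 3 (-1.25, adjusted p 0.0271). Leaving out each library in turn gave -1.25 to -0.66. The authors' deposited table of triple null against FoxA3 null gives -1.20 for Abcc2 (adjusted p 0.000537), which passes both limits used here. For Abcb4 it gives 0.21 (adjusted p 0.171).

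Of the sinusoidal exporters, Abcc3 fell. It was 136, 136, 97.6 and 135 RPKM in FoxA3 null and 48.7, 54.6, 48.4 and 42.9 RPKM in the triple null. The groups did not overlap, and the triple null mean was 38.5% of the FoxA3 null mean, with a log2 difference of -1.35 (SE 0.13, adjusted p 2.3e-06 by limma). Abcc4 was near the bottom of the measured range in all hepatocyte libraries, between 0.0349 and 0.428 RPKM, and was not tested there.

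**Figure D2:**
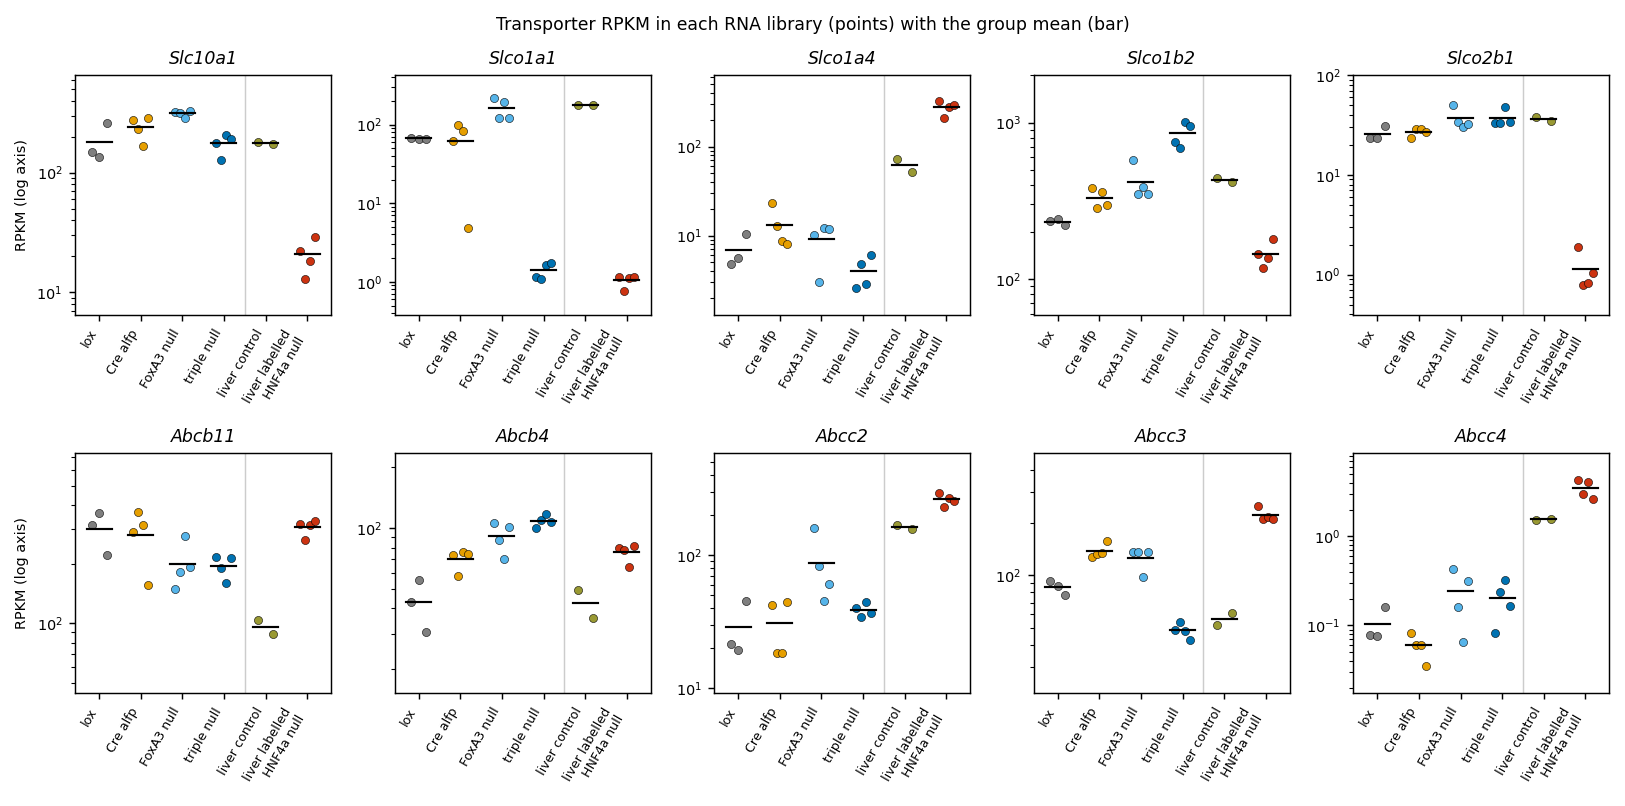
RPKM (log axis) of each transporter in every RNA library, with points for libraries and bars for group means, in 4 hepatocyte groups and 2 liver groups. Slco1a1 lies between 1.10 and 1.75 RPKM in the triple null and between 0.766 and 1.15 RPKM in the liver libraries labelled HNF4a null, while Slco1b2 is highest in the triple null.

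The deletion of Foxa1 and Foxa2 was also measured with FoxA3 present. In Cre alfp against lox, limma called 0 of the 9 tested transporters, where 1.29% of all genes were called higher and 1.1% lower; 3 had an unadjusted p under 0.05. Abcc3 was 93.0, 87.0 and 77.4 RPKM in lox and 127, 133, 135 and 157 RPKM in Cre alfp. The groups did not overlap, and the log2 difference was 0.68 (SE 0.14, adjusted p 0.00979 by limma), under the minimum difference. Abcb4 was 42.9, 55.2 and 30.5 RPKM in lox and 73.6, 57.8, 76.1 and 74.5 RPKM in Cre alfp, also without overlap, with a log2 difference of 0.74 (SE 0.18, adjusted p 0.0327 by limma).

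Slco1b2 was 235, 241 and 223 RPKM in lox and 382, 286, 362 and 296 RPKM in Cre alfp, and its log2 difference of 0.50 (SE 0.19, adjusted p 0.155 by limma) did not pass. Slco1a1 was 67.6, 66.2 and 65.7 RPKM in lox and 62.5, 99.2, 82.3 and 4.79 RPKM in Cre alfp. Cre alfp replicate 4 lay far below the others, and the log2 difference of -0.69 (SE 0.70, adjusted p 0.674 by limma) was 0.26 without it. The remaining 5, Slc10a1, Slco1a4, Slco2b1, Abcb11 and Abcc2, overlapped between lox and Cre alfp and had adjusted p of 0.367 or more in limma.

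The interaction sets the deletion in FoxA3-deficient hepatocytes against the deletion with FoxA3 present. It called 0 transporters higher and 3 of 9 lower, where 3.28% of all genes were higher and 3.54% lower. Abcc3 had an interaction of -2.03 (SE 0.19, adjusted p 7.82e-06 by limma), Slco1a1 of -5.35 (SE 0.96, adjusted p 0.00229) and Slc10a1 of -1.28 (SE 0.32, adjusted p 0.017). For Slco1a1 it was -6.30 without Cre alfp replicate 4. For Slc10a1 the call was lost without lox replicate 1 (-1.18, adjusted p 0.0538) or lox replicate 2 (-1.10, 0.0522); lox replicate 3 was the highest of its group at 262 RPKM. Slco1a4 was not called at -1.74 (adjusted p 0.0656), and was called without FoxA3 null replicate 2 (-2.14, 0.0137) or lox replicate 3 (-2.03, 0.0459). The Slco1b2 interaction of 0.55 (SE 0.25, adjusted p 0.16) did not pass, so a larger rise in the absence of FoxA3 was not shown. The way of deletion also differed between the arms and cannot be told apart from the FoxA3 genotype.

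**Figure D3:**
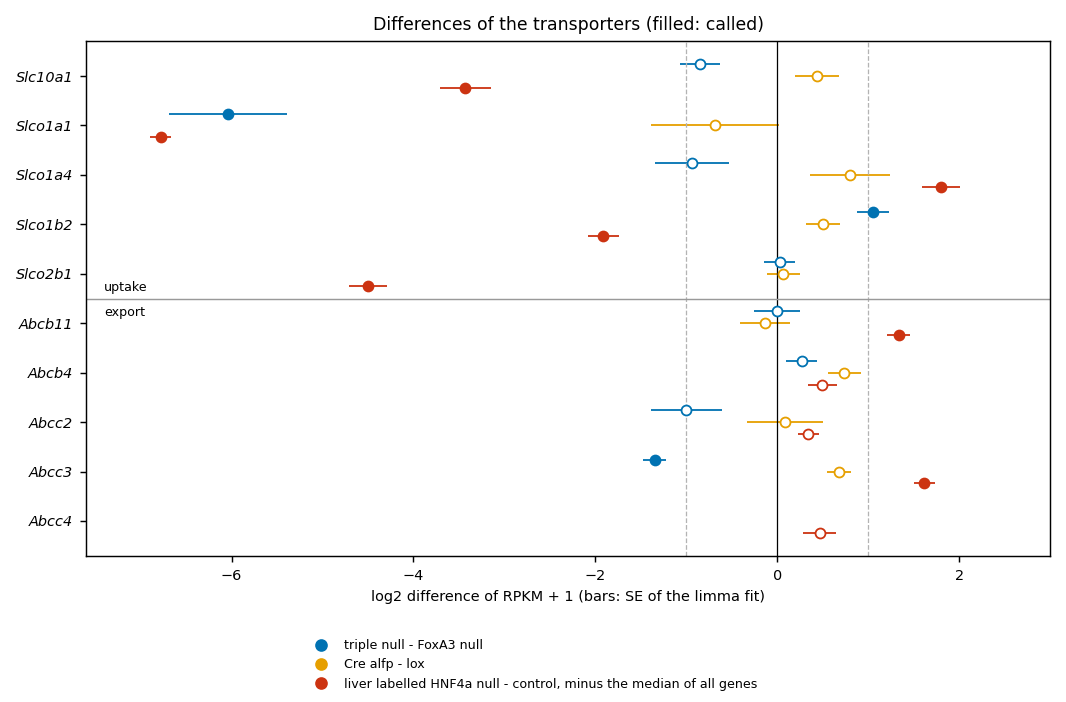
Log2 differences of RPKM + 1 with the SE of the limma fit for 3 comparisons, with filled points for called transporters and dashed lines at -1 and 1. Liver values are drawn relative to the median of all genes (0.337). Slco1a1 lies near -6.04 in the triple null and -6.78 in liver. Slco1b2 and Abcc3, called in both of these comparisons, lie on opposite sides of 0.

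Comparisons of FoxA3 null or triple null with lox or Cre alfp cross a split between libraries. In the matrix, 11 genes read 0 throughout the 8 libraries without FoxA3 and more than 1 RPKM throughout the 7 others, and 2 genes the other way. No batch is named in the labels. FoxA3 genotype cannot be told apart from other differences between these libraries, such as a batch. FoxA3 null against lox called 2 of 9 transporters, both higher, where 3.63% of all genes were called higher and 3.56% lower; under median scaling, lower genes made up 63.7% of all calls in place of 49.5%. Abcb4, with the values given above, had a log2 difference of 1.10 (SE 0.18, adjusted p 0.00105 by limma), or 0.99 from the all-gene median, and fell under the minimum difference under median scaling and without lox replicate 3 (0.88). Abcc2 was 21.6, 19.4 and 44.9 RPKM in lox against 45.7 to 160.1 RPKM in FoxA3 null, a log2 difference of 1.52 (SE 0.42, adjusted p 0.014 by limma), or 1.41 relative to that median. The call was lost without lox replicate 1 (1.37, adjusted p 0.059) or lox replicate 2 (1.30, 0.0671). Slc10a1, at 0.85 (adjusted p 0.0152), was under the minimum difference and passed without lox replicate 3 (1.14, 0.00303). Slco1b2 at 0.80 (adjusted p 0.00625) and Abcc3 at 0.54 (adjusted p 0.00902), both without overlap, were under the minimum difference too. Slco1a1 had a higher mean in FoxA3 null than in lox without overlap, but its log2 difference of 1.22 (SE 0.70) had an adjusted p of 0.187 by limma. With only the 2 groups in the fit, the SE was 0.23 and the adjusted p 0.0104. The larger SE uses a spread shared by all hepatocyte groups, Cre alfp with its low replicate 4 included.

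Triple null against lox called 3 of 9, where 7.72% of all genes were higher and 5.81% lower, and median scaling moved the share of lower calls from 42.9% to 54.9%. The log2 difference was 1.85 for Slco1b2 (adjusted p 3.71e-06 by limma), 1.36 for Abcb4 (5.53e-05) and -4.82 for Slco1a1 (0.000106). Measured from the all-gene median (0.132), these were 1.72, 1.23 and -4.95. Slc10a1 did not pass, at 176 ± 34.3 RPKM in the triple null and 182 ± 69.4 RPKM in lox (SD, n = 4 and 3). Abcc3 was 42.9 to 54.6 RPKM in the triple null and 77.4 to 93.0 RPKM in lox, without overlap; its log2 difference of -0.81 (SE 0.14, adjusted p 0.000355 by limma) was under the minimum difference. Also without overlap and not called were Slco2b1 at 0.50 (adjusted p 0.0413) and Abcb11 at -0.60 (adjusted p 0.0891). The authors' deposited table of triple null against undeleted control, which does not name its libraries, gives -1.21 for Abcc3 (adjusted p 9.21e-11), -0.94 for Abcb11 (7.33e-05) and 0.26 for Slco2b1 (0.116).

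Triple null against Cre alfp called 4 of 9, where 5.26% of all genes were higher and 5.03% lower; median scaling moved the share of lower calls from 48.9% to 60.4%. The log2 difference was -4.13 for Slco1a1 (adjusted p 0.000234 by limma), -1.48 for Abcc3 (7.87e-07), -1.44 for Slco1a4 (0.0114) and 1.36 for Slco1b2 (3.98e-05). Measured from the all-gene median (0.125), these were -4.25, -1.61, -1.57 and 1.23. Leaving out each library in turn gave -5.08 to -3.71 for Slco1a1. Not called, though without overlap, were Abcb4 at 0.63 (adjusted p 0.00978) and Slco2b1 at 0.43 (adjusted p 0.0549). Both comparisons share the triple null libraries with triple null against FoxA3 null, which lies within a side of the split, so their calls do not bear on each other independently. Within that side, Abcb4 (0.27, adjusted p 0.259 by limma) and Slco1a4 (-0.94, adjusted p 0.0936) were not called. The authors' deposited table of triple null against Cre alfp, with p-values adjusted here, gives -0.85 for Abcb11 (adjusted p 0.00203). It gives -0.65 for Slc10a1 (0.00499), 0.43 for Abcb4 (0.000327) and 0.19 for Slco2b1 (0.13).

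By level per length (RPKM), Slco1b2, Abcb11 and Slc10a1 were the 3 highest transporters in each hepatocyte group. In lox, Abcb11 (302 ± 71.6 RPKM), Slco1b2 (233 ± 9.27) and Slc10a1 (182 ± 69.4) led, with neighbours in that order overlapping (SD, n = 3). In Cre alfp, Slco1b2 (331 ± 47.7 RPKM), Abcb11 (282 ± 89.5) and Slc10a1 (241 ± 56.2) led, again with overlapping neighbours (SD, n = 4). In FoxA3 null, Slco1b2 (416 ± 109 RPKM) led, above Slc10a1 (314 ± 18.2) and Abcb11 (200.4 ± 54.5), with no overlap between these neighbours (SD, n = 4). In the triple null, Slco1b2 (854 ± 156 RPKM) stood above the overlapping pair Abcb11 (196 ± 26.3) and Slc10a1 (176 ± 34.3). Slco1a1, in place 4 in FoxA3 null, was in place 9 in the triple null, above Abcc4 only.

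The liver libraries labelled HNF4a null had less RNA of most uptake carriers and more of several exporters. Slco1a1, Slco2b1, Slc10a1 and Slco1b2 fell, while Slco1a4, Abcb11 and Abcc3 rose. Of the 10 transporters, 3 were called higher and 4 lower, where 8.58% of all genes were called higher and 5.95% lower. The same numbers, 3 and 4, held under quantile normalization and median scaling, which moved the share of lower genes among all calls from 41.0% to 60.6% and 65.8%. Of all genes, 4.7% and 4.1% were then called higher, and 7.24% and 7.91% lower. The median of all genes was shifted by 0.337 on the log2 scale, so differences are also given relative to it.

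Slco1a1 was 177 RPKM in both liver controls. The libraries labelled HNF4a null had 1.15, 0.766, 1.13 and 1.15 RPKM. The latter mean was 0.594% of the control mean, and the log2 difference was -6.44 (SE 0.11, adjusted p 5.08e-07 by limma), or -6.78 relative to the median. Slco2b1 was 38.4 and 34.6 RPKM in the controls and 1.87, 0.795, 0.820 and 1.04 RPKM in the others, a log2 difference of -4.16 (SE 0.21, adjusted p 1.86e-05 by limma), or -4.50 relative to the median. Neither gene overlapped between the groups. Slco1a1 was thus near 1 RPKM both here and in the triple null, whereas Slco2b1 was 37.1 ± 7.27 RPKM in the triple null (SD, n = 4).

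Slc10a1 was 181 and 173 RPKM in the liver controls, while the libraries labelled HNF4a null had 22.3, 13.0, 18.4 and 29.1 RPKM. The groups did not overlap, and the log2 difference was -3.09 (SE 0.28, adjusted p 0.000269 by limma), or -3.43 relative to the median. Slco1b2 was 445 and 416 RPKM in the controls and 144, 119, 137 and 181 RPKM in the others. It was lower in all 4, with a log2 difference of -1.58 (SE 0.17, adjusted p 0.00052 by limma), or -1.91 relative to the median, opposite in sign to the triple null.

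Slco1a4 was the uptake carrier that rose, from 71.7 and 52.2 RPKM in the controls to 322, 207, 279 and 296 RPKM. All 4 libraries were above both controls, and the log2 difference was 2.14 (SE 0.21, adjusted p 0.000363 by limma), or 1.80 relative to the median. Its share of the summed uptake RPKM was 6.98% ± 1.23 in the controls and 62.1% ± 3.28 in the libraries labelled HNF4a null (SD, n = 2 and 4). The share of Slc10a1 was 20.1% ± 0.376 and 4.57% ± 0.824. The sum of the 5 uptake carriers was 853 to 913 RPKM in the controls and 340 to 509 RPKM in the others. Slco1 genes are similar in sequence, and how reads shared between them were assigned is not given in the sources used here. The nearby Slco1a6 and Slco1a5 were at most 0.846 RPKM in any library.

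Abcb11 was 104 and 88.8 RPKM in the liver controls. Without overlap, the libraries labelled HNF4a null had 321, 265, 317 and 330.3 RPKM. The log2 difference was 1.67 (SE 0.13, adjusted p 0.000132 by limma), or 1.33 relative to the median. Abcc3 was 51.9 and 60.8 RPKM in the controls and 249, 209, 214 and 209 RPKM in the others, a log2 difference of 1.95 (SE 0.12, adjusted p 4.41e-05 by limma), or 1.61 relative to the median. It was thus higher in this set and lower in the triple null. The sum of the 5 exporters was 346 to 375 RPKM in the controls and 786 to 950 RPKM in the libraries labelled HNF4a null.

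The other exporters passed the adjusted p without reaching the minimum difference. Abcb4 was 49.5 and 35.7 RPKM in the controls and 80.1, 77.9, 64.4 and 81.3 RPKM in the others, with a log2 difference of 0.83 (SE 0.16, adjusted p 0.00554 by limma), or 0.49 relative to the median. Leaving out the higher control raised it to 1.06, above the minimum difference, and leaving out each library in turn gave 0.60 to 1.06. Abcc2 was 168 and 159 RPKM against 295, 231, 269 and 258 RPKM, a log2 difference of 0.68 (adjusted p 0.00383 by limma), or 0.34 relative to the median. Abcc4 was 1.55 and 1.56 RPKM against 4.33, 3.01, 4.11 and 2.60 RPKM, a log2 difference of 0.80 (SE 0.18, adjusted p 0.0111 by limma), or 0.46 relative to the median. With a pseudocount of 0.1 it was 1.10 (adjusted p 0.00852) and called. In the authors' deposited table of this liver comparison, Abcc2 did not pass, at 0.13 (adjusted p 0.424). That table gives 0.39 for Abcb4 (0.00634), 0.79 for Abcc4 (0.000158), 1.26 for Abcb11 (2.59e-18) and 1.51 for Abcc3 (1.29e-27). Over 11115 shared genes, the median of that table minus the fit here was -0.364.

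Some cell type markers moved with the liver result. The 7 hepatocyte markers summed to 27335 to 27656 RPKM in the controls and 16179 to 20651 RPKM in the libraries labelled HNF4a null, with 3 of 7 called lower (Ttr, Alb and Tat) and 1 higher (Cps1); their part in the lower uptake carriers was not tested. Genes of 6 cholangiocyte markers summed to 14.5 RPKM in both controls and to 107 to 205 RPKM in the libraries labelled HNF4a null, where 3 of 4 tested, Spp1, Sox9 and Epcam, were called higher; Cftr was under 1 RPKM throughout. Spp1 alone rose from 13.0 ± 0.344 to 147 ± 41.0 RPKM (SD, n = 2 and 4). Cholangiocytes also hold bile salt carriers, and their part in the exporter values was not tested. The 6 Kupffer cell markers summed to 92.1 to 102 and 112 to 145 RPKM, with 1 of 6 called higher. Of the 6 sinusoidal endothelium and 6 stellate cell markers, 0 were called in liver by limma, where 4 had an unadjusted p under 0.05 (Eng, Dcn, Colec11 and Pdgfrb). Of 3 erythroid markers tested in liver, 1 was called lower, Alas2. In the triple null, the 6 sinusoidal endothelium markers summed to 4.59 to 8.85 RPKM against 12.9 to 26.7 RPKM in FoxA3 null, with 2 of 5 tested called lower, and the 6 stellate cell markers to 6.24 to 22.4 against 24.3 to 33.5 RPKM, with 2 of 3 called lower. The 4 erythroid markers summed to 5.94 to 21.7 RPKM in the triple null and 33.0 to 47.3 RPKM in FoxA3 null; of 3 tested, Alas2 was called lower (-4.29) and the globin genes Hba-a1 (1.79) and Hbb-b1 (1.49) were called higher. In triple null against lox, 5 of 7 hepatocyte markers were called lower and 1 higher. In triple null against Cre alfp it was 3 and 0, and in the interaction 3 and 1. In that order, endothelial markers called lower numbered 3, 4 and 1 of 5, and stellate cell markers 0, 1 and 2 of 3, with 0 higher. Of 2 cholangiocyte markers tested, 1, 0 and 0 were lower. Of 3 erythroid markers, 1 was lower in each, and 2, 0 and 0 higher. Sox9 (-1.45) and Alas2 (-1.10) were called lower in FoxA3 null against lox. In Cre alfp against lox, Spp1 (-1.15) and Alas2 (-2.54) were called lower and Hbb-b1 (1.46) higher. The part of these markers in the hepatocyte results was not tested either.

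Other carriers were read from lists chosen with these data known. Of 12 other uptake carriers, 8 were tested in triple null against FoxA3 null, with 1 called higher and 3 lower and a median log2 difference of -0.41. Slc22a30, of the organic anion transporter family, fell from 74.7 ± 6.61 to 10.8 ± 1.28 RPKM (SD, n = 4 each), a log2 difference of -2.68 (adjusted p 9.25e-09 by limma). Slc22a7 (OAT2) fell from 9.79 ± 5.23 to 0.907 ± 0.152 RPKM (-2.37, adjusted p 8.43e-05). The organic cation carrier Slc22a3 rose from 1.03 ± 0.595 to 7.0 ± 1.75 RPKM (2.00, adjusted p 2.2e-05). In liver, 0 of 9 tested were called higher and 5 lower, led by Slc22a30 (-6.03), Slc10a5 (-4.27) and Slc22a28 (-2.83).

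Among 13 other exporters and flippase subunits, 11 were tested in triple null against FoxA3 null, with 2 called higher and 1 lower and a median of -0.16. Ostb (Slc51b), a subunit of the sinusoidal steroid and bile salt exporter, rose from 0.480 ± 0.451 to 4.11 ± 0.820 RPKM (SD, n = 4 each), a log2 difference of 1.82 (adjusted p 1.51e-05 by limma). Tmem30a, the partner of phospholipid flippases such as Atp8b1, fell from 48.5 ± 8.47 to 21.6 ± 3.25 RPKM (-1.13, adjusted p 7.03e-05). Abcb1b, a multidrug pump, was at 1.09 (adjusted p 0.0232). In liver, 3 of 12 were called higher and 4 lower; Slc47a1 (MATE1) was at -4.74, Abcc6 at -3.60 and Ostb at 1.87, with values of 1.90 ± 0.520 RPKM in the controls and 9.65 ± 1.78 RPKM in the others for Ostb.

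Of 9 regulators known to act on these genes, all tested, 0 were called higher and 1 lower in triple null against FoxA3 null, with a median of 0.035. Nr5a2 (LRH-1) was 8.96 ± 3.26 RPKM in FoxA3 null and 3.88 ± 1.11 RPKM in the triple null (SD, n = 4 each), a log2 difference of -1.0 (adjusted p 0.00143 by limma). Nr1h4, the bile salt receptor FXR, did not pass, at 96.4 ± 6.26 and 99.1 ± 11.1 RPKM. Its liver values were 45.8 to 53.6 RPKM in the controls and 25.9 to 29.0 RPKM in the libraries labelled HNF4a null. The groups did not overlap, and Nr1h4 was not called. Calls are made without taking off the all-gene median of 0.337, which would make a fall larger. In liver, 2 of 9 were higher and 2 lower: Nr1i3 (CAR) at -4.80, Ppara at -2.18, Hnf4a itself at 2.09 and Nfe2l2 at 1.03, the last of which is 0.69 relative to the median. Of 8 membrane anchors and trafficking genes, limma called 0 in triple null against FoxA3 null. In liver 1 was called lower, Pdzk1, a scaffold that holds Slco1a1 at the membrane, at -4.57, from 33.7 ± 1.73 to 0.484 ± 0.265 RPKM (SD, n = 2 and 4). Pdzk1 was 26.8 ± 3.21 RPKM in FoxA3 null and 48.5 ± 12 RPKM in the triple null (SD, n = 4 each).

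The authors' deposited tables also place the transporters in development; the libraries behind their adult reference are not given in the sources used here. In the authors' deposited table of hepatoblasts against adult hepatocytes, 9 of the 10 were lower, from -3.85 for Abcc3 to -6.55 for Slco1a1, and Abcc4 was higher at 1.85 (adjusted p 0.000633). In the authors' deposited table of newborn against adult hepatocytes, Slco1a1 was at -7.21, Slco2b1 at -3.58 and Abcc3 at -3.43. Slc10a1 (-0.23, adjusted p 0.52) and Abcb11 (-0.17, adjusted p 0.631) did not pass there, and Abcc2 was higher at 1.18 (adjusted p 0.00428). The authors' deposited table of triple null against hepatoblast gives Slco1b2 at 7.76, Abcb4 at 6.58, Abcb11 at 5.12 and Slco1a1 at 0.85 (adjusted p 0.0375). Slco1a1 was thus the transporter with the smallest difference from hepatoblasts in that table.

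**Figure D4:**
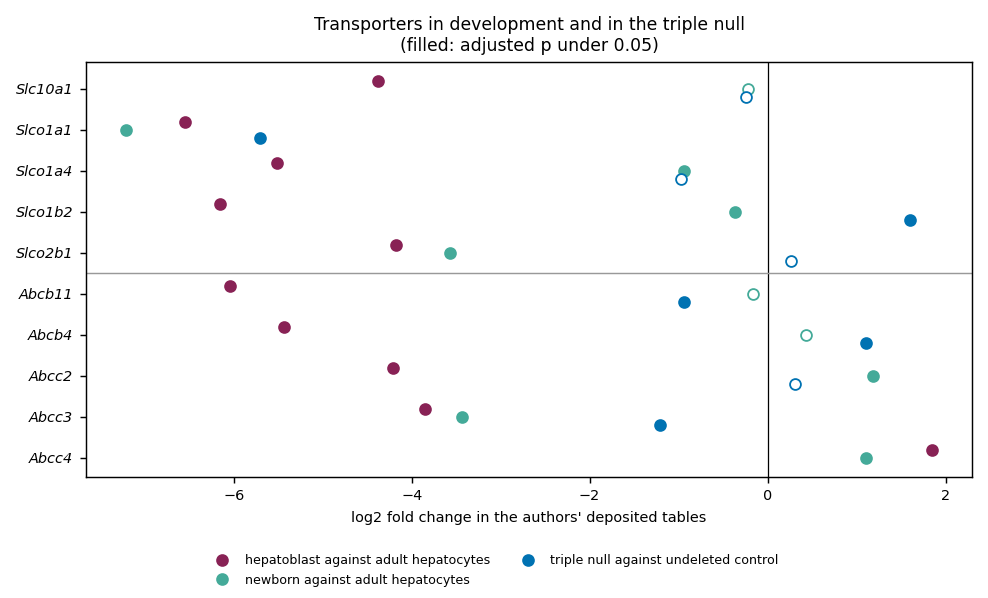
Log2 fold changes from the authors' deposited tables for hepatoblast and newborn against adult hepatocytes and for triple null against undeleted control, with filled points for an adjusted p under 0.05. Slco1a1 lies at -6.55, -7.21 and -5.70, whereas Slco1b2 lies at -6.15 in hepatoblasts and 1.60 in the triple null.

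For each tested transporter, the gene with the most similar pattern over the 15 hepatocyte libraries was found by Pearson's r of log2(RPKM + 1); the libraries share groups and the split above, so r is a description. It was Sdr9c7 for Slco1a1 (r = 0.963), Ano10 for Slco1b2 (0.977), Nr2c1 for Slc10a1 (0.926), Accs for Slco1a4 (0.796) and Csnk1a1 for Slco2b1 (0.941). For the exporters it was Aasdh for Abcb11 (0.916), Rtn4 for Abcb4 (0.959), Mapk6 for Abcc2 (0.954) and 1500017E21Rik for Abcc3 (0.952).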

How the data were processed

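RNA was sequenced from mouse hepatocytes (15 libraries) and liver (6 libraries), with 1 kit and sequencer model per the labels' protocols. The authors deposited 1 matrix of RPKM values; 21 columns matched a sample or group and 9 matched none and were not used. Per the submitters' processing notes, the build mm9, SAMtools, Cufflinks 2.2.1 and DESeq2 were used; their roles, the aligner, annotation and strand setting are not given in the sources used here. Of positive values, 2.9% were under 1e-06. The authors also deposited tables of log2 fold changes with p-values, without naming libraries or filters; the table against undeleted controls had its sign turned, and the last column of the table against Cre alfp, an unadjusted p-value, was adjusted here.

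The limma package (3.58.1, R 4.3.3; lmFit and eBayes with trend) was fitted on log2(RPKM + 1), which understates changes of low genes. Genes entered the hepatocyte fit if 3 or more libraries reached 1 RPKM, and the liver fit if 2 or more did, with no covariates. The interaction is the triple null minus FoxA3 null difference less the Cre alfp minus lox difference. The fits were tested on simulated data. Transporters and lists were chosen with earlier results of these data known, and no list was tested as a set. Named besides the transporters were the targeted genes, up to 3 called genes of each list with the largest difference in liver and in triple null against FoxA3 null, and the most similar gene of each transporter. Nr1h4, Slco1a5, Slco1a6, the marker genes named and the hepatocyte values of Pdzk1 fall outside this rule and were chosen after their values were seen. Symbols Slc51a, Slc51b, Vipas39 and Adgre1 were matched through RefSeq synonyms. Promoter windows and gene order came from RefSeq (GRCm38.p6), another build than mm9, and were used by symbol only. Peak, chromatin and ATAC-seq data were not used here. Some items of the lists are not reported here.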

Additional observations from a re-analysis of the deposited data

Results flagged for a closer look

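Libraries that lay apart from the 3 others of their group were sought by Dixon's criterion (gap over range above 0.829, on the log2 scale). They were found in 7 of 40 sets tested, each being 1 transporter in a group of 4 libraries. Chance flags about 1 in 20 independent sets. These sets share libraries and are not independent, so the number of flags cannot be weighed against chance. Slco1a1 was 4.79 RPKM in Cre alfp replicate 4, where the others were 62.5 to 99.2 RPKM. Slco1a1 was 0.766 RPKM in 1 liver library labelled HNF4a null against 1.13 to 1.15 RPKM in the others. Slco1a4 was 3.00 RPKM in FoxA3 null replicate 2 against 10.1 to 12.2 RPKM. Slco2b1 was 48.0 RPKM in triple null replicate 3 against 32.8 to 34.2 RPKM, and Abcb4 was 57.8 RPKM in Cre alfp replicate 2 against 73.6 to 76.1 RPKM. Abcc3 was 97.6 RPKM in FoxA3 null replicate 3 against 135 to 136 RPKM, and 249 RPKM in 1 liver library labelled HNF4a null against 209 to 214 RPKM.

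By the limma interaction term, the difference with FoxA1/A2 deletion was not the same in FoxA3-deficient and FoxA3-containing hepatocytes for Slc10a1 (-1.28), Slco1a1 (-5.35) and Abcc3 (-2.03 on the log2 scale). The Slc10a1 call was lost without lox replicate 1 (-1.18, adjusted p 0.0538) or lox replicate 2 (-1.10, 0.0522). The way of deletion cannot be told apart from the FoxA3 genotype.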

How the results depend on the processing

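Over 64 differences of a transporter in a comparison, 1011 values under alternatives were computed; 953 kept their direction and side of the threshold, 10 lost a call, 22 gained one and 26 changed sign. With no minimum difference, 2 transporters were called in Cre alfp against lox (all genes: 2.84% higher, 2.62% lower), 5 in FoxA3 null against lox (21.7%, 13%) and 5 in triple null against lox (27.7%, 14.8%). Under median scaling FoxA3 null against lox had 1 (all genes: 2.62% higher, 4.59% lower). Slco2b1 in triple null against FoxA3 null was -0.063 under quantile normalization and -0.0044 under median scaling.

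Leaving out each library in turn gave 1 to 2 calls in FoxA3 null against lox. Of all genes, 2.58% to 5.59% were then called higher and 2.71% to 4.48% lower. In triple null against FoxA3 null it gave 2 to 4 calls, with 3.85% to 4.69% of all genes higher and 3.56% to 4.37% lower. The interaction had 2 to 4, with 2.66% to 3.67% of all genes higher and 2.89% to 4.15% lower. Leaving out a library in triple null against FoxA3 null gave differences of -0.10 to 0.19 for Slco2b1 and -0.13 to 0.16 for Abcb11. For Abcb4 it gave 0.15 to 0.34. In Cre alfp against lox it gave -1.11 to 0.26 for Slco1a1, -0.0038 to 0.20 for Slco2b1, -0.33 to 0.12 for Abcb11 and -0.13 to 0.45 for Abcc2. For the interaction it gave -0.17 to 0.12 for Slco2b1 and -0.13 to 0.33 for Abcb11, and in triple null against lox -0.19 to 0.29 for Slc10a1. Causes were not tested. Where a liver control was left out, the lone control is assumed to vary like the other group.

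With the replicate number as a block, the transporters called numbered 3, 0, 3, 2, 3 and 4 in triple null against FoxA3 null, Cre alfp against lox, the interaction, FoxA3 null against lox, triple null against lox and triple null against Cre alfp, as without it. In that order, 4.09%, 1.08%, 3.27%, 3.79%, 7.56% and 5.25% of all genes were called higher with the block. The shares called lower were 3.9%, 0.913%, 3.44%, 3.46%, 5.6% and 5%. Deviations of 21 same-numbered pairs correlated at -0.36 to 0.17, 3 of them over 0.1, so the numbers were not taken to pair libraries. No paired analysis was possible in liver because its columns carry no replicate number. Counts over all genes moved too: FoxA3 null against lox called 706 genes higher and 597 lower with a pseudocount of 0.1, against 418 and 409, and Cre alfp against lox called 104 and 78 with only the 2 groups in the fit and 93 and 84 without lox replicate 1, against 148 and 126. FoxA3 null against lox called 641 and 514 without FoxA3 null replicate 3, and triple null against FoxA3 null called 692 lower with a pseudocount of 0.1, against 454. Liver called 1868 higher with a pseudocount of 0.1, 510 under median scaling and 584 under quantile normalization, against 1067. Without a minimum difference, triple null against FoxA3 null called 2002 higher and 1411 lower, Cre alfp against lox 327 and 301, the interaction 949 and 709, FoxA3 null against lox 2501 and 1500, triple null against lox 3186 and 1705, triple null against Cre alfp 3088 and 1655, and liver 5110 and 1459. Absolute depth is unknown, and the liver libraries were the shallowest.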
